A study of Homo sapiens with 2 samples.

Results

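The 4 HOX clusters encode homeodomain transcription factors, and their expression was examined in CP-A cells, a human line from metaplastic Barrett's epithelium without dysplasia that was made immortal with TERT, the catalytic subunit of telomerase. The members were all rows of the deposited table whose annotated symbol is HOX followed by a cluster letter from A to D and a number, with 1 row kept per gene. This rule found 23 rows for 23 genes, out of 17687 genes with a symbol on the array, and it used no difference between the samples. RefSeq lists 39 such genes. The 16 others were not analysed here, and they comprised 10 of the 11 HOXA genes, HOXB3, HOXB4, HOXC4, HOXC5, HOXC6 and HOXD1. The measured genes were therefore HOXA2 on chromosome 7, 8 of 10 HOXB genes on chromosome 17, 6 of 9 HOXC genes on chromosome 12 and 8 of 9 HOXD genes on chromosome 2.

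The study compared 1 culture of control CP-A cells with 1 culture exposed to pH 6.4 + DCA, that is, to acidified medium with the secondary bile acid deoxycholic acid. Exposure was repeated, with regrowth in basal medium in between, and both cultures shared the same serum-containing medium with epidermal growth factor, hydrocortisone and cholera toxin. RNA from each culture was hybridized to 1 Clariom S human array, which reads a gene through a set of short probes, and the authors deposited log2 expression levels. The methods describe mitotic arrest with nocodazole before RNA extraction for RT-qPCR, and they do not state whether the array RNA came from cells treated in this way. With 1 array per condition there was no replicate check, so no test was made and no error is given. Precision is limited by the number of arrays. A gene was called higher or lower only when it differed by 2-fold or more, which is a log2 difference of 1.0 or more in size, as in the methods of the study. Differences are pH 6.4 + DCA minus control, and the arrays are named by their labels.

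HOX genes lie side by side in each cluster, numbered by their order along the chromosome, and genes of the same number in different clusters are paralogs. In the embryo, low-numbered genes are expressed towards the head and high-numbered genes towards the tail, and adult epithelia and fibroblasts keep part of this pattern as a mark of their position along the body. The proteins bind DNA together with cofactors of the PBX, MEIS and PKNOX families. The clusters are kept silent by Polycomb proteins and active by MLL-type histone methyltransferases, and retinoic acid induces the low-numbered genes.

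The promoters of HOXA2 and HOXB1 are shown because HOXA2 was the single HOX gene that passed 2-fold, while HOXB1, like it a hindbrain gene of the low-numbered end, did not. Each sequence is 300 bases of GRCh38.p14 around the annotated transcription start, written 5′ to 3′ on the strand of the gene. Capitals mark matches, on either strand, to TGATNNAT, a site form that PBX and HOX proteins bind together, to TGACAG, bound by MEIS proteins, and to the CCAAT box.
HOXA2 (chr7:27102634-27102933, minus strand): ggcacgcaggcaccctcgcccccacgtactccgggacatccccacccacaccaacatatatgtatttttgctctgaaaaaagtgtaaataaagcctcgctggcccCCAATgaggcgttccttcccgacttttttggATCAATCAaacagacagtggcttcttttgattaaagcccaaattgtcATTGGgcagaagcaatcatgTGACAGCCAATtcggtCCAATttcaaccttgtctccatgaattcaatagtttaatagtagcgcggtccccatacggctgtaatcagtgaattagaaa
HOXB1 (chr17:48530962-48531261, minus strand): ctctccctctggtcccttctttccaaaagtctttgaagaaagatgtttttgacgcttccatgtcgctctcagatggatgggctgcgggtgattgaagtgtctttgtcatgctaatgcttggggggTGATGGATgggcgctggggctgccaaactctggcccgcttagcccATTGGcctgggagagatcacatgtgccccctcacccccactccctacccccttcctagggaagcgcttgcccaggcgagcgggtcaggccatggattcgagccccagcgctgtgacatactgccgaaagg
The HOXA2 window held 1 match to TGATNNAT, 1 to TGACAG and 4 to the CCAAT box, of which 1 began directly after the TGACAG match. The HOXB1 window held 1 match to TGATNNAT, none to TGACAG and 1 to the CCAAT box. Over all 35116 promoter windows of this length in the table, 7.40% held TGATNNAT, 15.8% held TGACAG and 34.6% held CCAAT. Windows were available for 9 of the 23 measured HOX genes, and TGATNNAT was present in 3 of these, HOXA2, HOXB1 and HOXD11. Both printed windows held 11 CpG dinucleotides, and their GC content was 46.3% for HOXA2 and 58.0% for HOXB1, beside medians of 14 CpG and 58.7% GC over all windows. Neither held the TATA box TATAAA, the GC box GGGCGG or the retinoid receptor half-site AGGTCA, which were present in 11.5%, 45.0% and 13.8% of all windows. These matches describe the sequence, and binding was not measured.

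HOXA2 was the only measured HOX gene called on the pH 6.4 + DCA array. HOXA2 patterns the hindbrain and the second pharyngeal arch in the embryo. Its log2 level was 4.58 on the control array and 6.10 on the pH 6.4 + DCA array, a log2 difference of 1.51, or 2.86-fold. Both levels lay below the array medians of 6.52 and 6.46, and the control level lay close to the lower quartile of 4.43, so the fold was measured at low signal. Once 32 was added to each linear value, the difference was 0.84 and no longer reached 2-fold. The other measured gene of paralog group 2, HOXB2, lay under the lower quartile on both arrays, at 3.94 and 3.89.

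No other HOX gene came near the threshold. The next differences in size were those of HOXB6, at -0.41, HOXB13, at 0.37, and HOXB5, at -0.32. In all, 1 of 23 HOX genes was higher, none was lower and 22 were neither, while 2.52% of all 17687 genes were higher, 4.12% were lower and 6.64% were called in either direction. HOXA2 lay in the second of 4 equal bins of mean level, in which 2.37% of 4422 genes were higher and 6.65% were called in either direction. A single gene in 23 cannot be set apart from these shares. The 22 remaining genes lay within 0.41 of 0 on the log2 scale. This bound is the size of the HOXB6 difference, the largest of the 22, so they lie within it by its choice. The same range held 62.1% of all genes, and 73.1% of the genes in the lowest of 4 equal bins of mean level, where 11 of the 23 HOX genes lay. Because the bound was taken from the HOX genes, these shares do not show that HOX genes differ less than others. The median difference of the HOX genes was -0.018, beside 0.00 for all genes, with 10 HOX genes above 0 and 13 below. Their median difference in size, without regard to sign, was 0.17, beside 0.30 for all genes, which is not matched for level. In the lowest bin of mean level it was 0.17 for 11 HOX genes, beside 0.24 for all genes of that bin. In the second bin it was 0.23 for 7 HOX genes, beside 0.30, and in the third 0.17 for 4, beside 0.36. Whether HOX genes differ less than others was not tested. With each array centred on its median, the signed median difference of the HOX genes was 0.035, so its sign depended on the scaling.

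**Figure D1:**
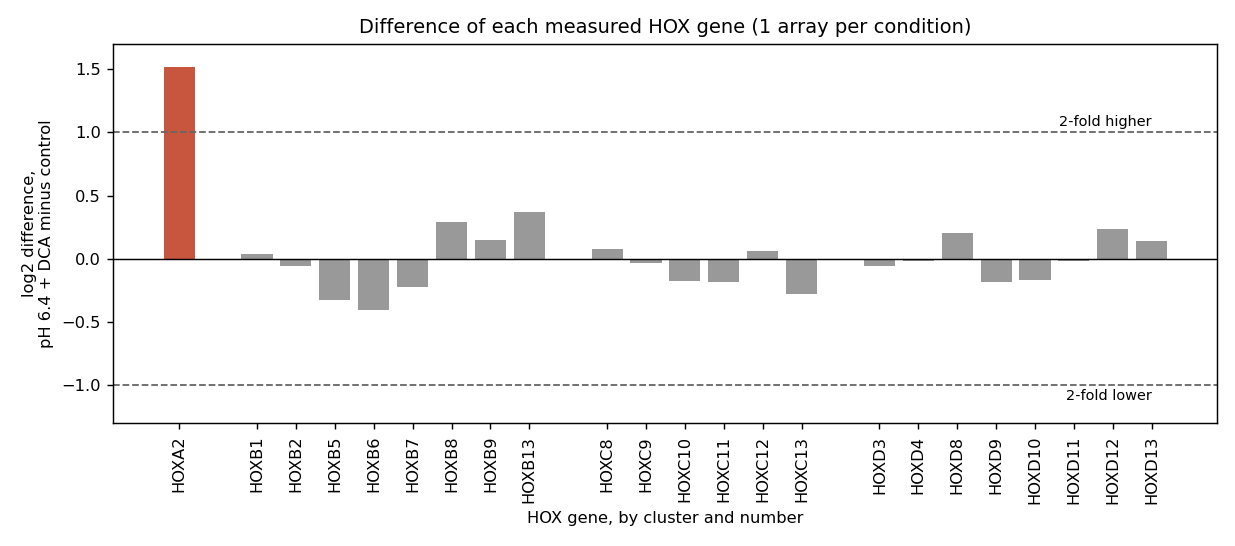
The bars give the log2 difference, pH 6.4 + DCA minus control, for each of the 23 measured HOX genes, ordered by cluster and number, and the dashed lines mark 2-fold. HOXA2 reaches 1.51, and the other 22 bars stay between -0.41 and 0.37.

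The HOX genes with signal above the array median were 5 genes of 2 clusters, HOXB7, HOXB9, HOXC9, HOXC10 and HOXC11. Levels of different genes come from different probe sets, so they are placed here only against the quartiles of all rows of their own array and are not ranked against each other. The arrays had lower quartiles of 4.43 and 4.45 and upper quartiles of 9.37 and 9.36. Of the 23 HOX genes, 5 lay at or above the median on their higher array, 9 lay under the lower quartile on both arrays, and 9 lay between. Over all genes, 54.3% lay at or above the median and 21.4% under the lower quartile, against 21.7% and 39.1% of the HOX genes. The same 5 genes lay above the median on both arrays, and none of them was called.

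HOXC10, which takes part in patterning the lumbar region and hindlimb in mouse, had log2 levels of 9.72 on the control array and 9.55 on the pH 6.4 + DCA array. Both lay above the upper quartile, and the difference was -0.17. HOXC9, a regulator of thoracic identity in mouse, went from 7.98 to 7.95, a difference of -0.033. HOXC11, the next gene on the other side of HOXC10, went from 6.90 to 6.72, a difference of -0.19, and both levels were only just above the medians. These 3 genes are consecutive numbers of the HOXC cluster. The genes on either side of them lay below the array medians, HOXC8 at 5.10 and 5.17, and HOXC12 at 3.56 and 3.62. HOXC13, which acts in hair and nail formation, was under the lower quartile as well, at 3.98 and 3.70. The median difference of the 6 HOXC genes was -0.10, with a range of -0.28 to 0.079.

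In the HOXB cluster, HOXB7, a gene of the trunk region, had log2 levels of 9.15 and 8.93, a difference of -0.22. HOXB9, which acts in thoracic patterning in mouse, had levels of 7.20 and 7.35, a difference of 0.15. HOXB8 lies between them in the cluster, and its signal was under the lower quartile on both arrays, at 3.72 and 4.02. The genes above the median were therefore not consecutive in this cluster. HOXB5 went from 4.66 to 4.34 and HOXB6 from 4.92 to 4.52, and these were the largest negative differences among all HOX genes. HOXB1, a hindbrain gene, was at 4.95 and 4.99. HOXB13, expressed in prostate and distal colon, lies apart from the rest of its cluster and was at 4.50 and 4.87. The 8 HOXB genes had a median difference of -0.0085, with 4 above 0 and 4 below.

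All 8 measured HOXD genes lay below the array median, and 5 of them, HOXD3, HOXD8, HOXD9, HOXD10 and HOXD13, lay under the lower quartile on both arrays. HOXD12, a limb gene, was at 5.82 on the control array and 6.06 on the pH 6.4 + DCA array. HOXD4 was at 4.71 and 4.70, and HOXD11 at 4.48 and 4.46. HOXD13, required for digit formation, was at 3.33 and 3.47, close to the 5th percentiles of the arrays, 3.27 and 3.32. The HOXD differences ranged from -0.18 to 0.23, with a median of -0.016. At such levels, a gene without transcripts and a weakly expressed gene cannot be told apart, because the table holds no detection call.

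**Figure D2:**
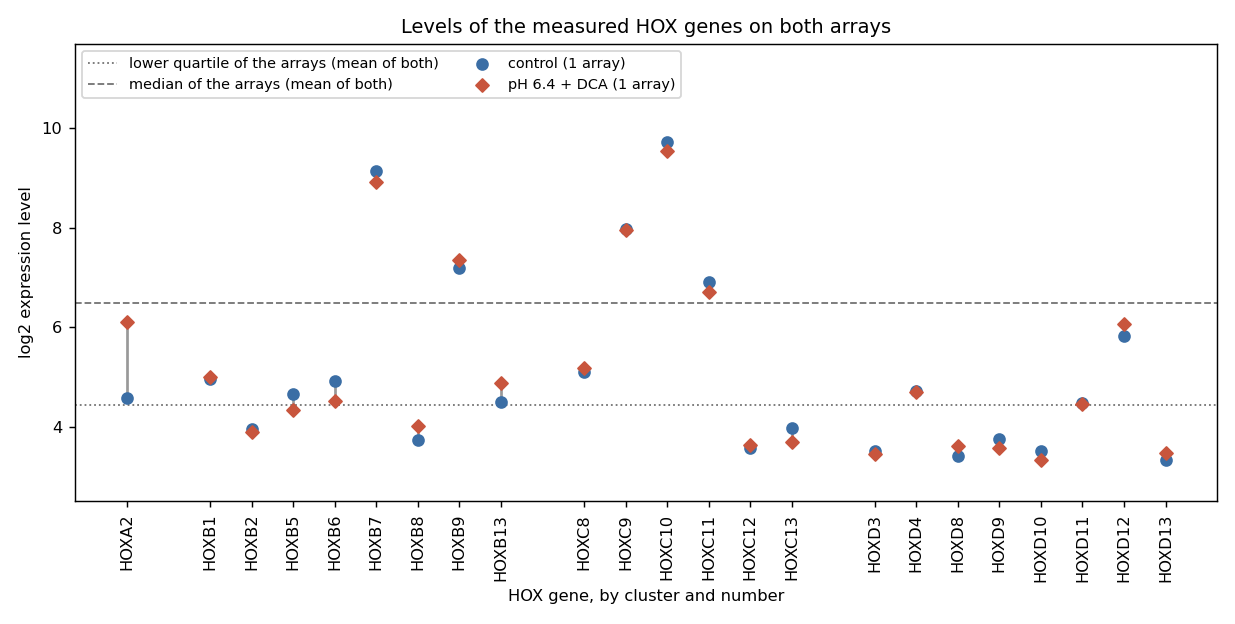
Each pair of points gives the log2 expression level of 1 HOX gene on the control array (blue circles) and on the pH 6.4 + DCA array (red diamonds), with the lower quartile and the median of all rows as lines. HOXB7, HOXB9, HOXC9, HOXC10 and HOXC11 stand above the median on both arrays, and HOXA2 shows the widest gap, from 4.58 to 6.10.

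By position along the body axis, the 4 measured anterior genes (paralog groups 1 to 3) included none above the median, the 7 central genes (groups 4 to 8) included 1, and the 12 posterior genes (groups 9 to 13) included 4. Within a paralog group, too, each gene is placed only against its own arrays, since the probe sets differ. In group 9, HOXB9 and HOXC9 were above the median, while HOXD9 was under the lower quartile, at 3.74 and 3.56. In group 10, HOXC10 was above the upper quartile, and HOXD10 was at 3.50 and 3.33. All 3 measured genes of group 8 and all 3 of group 13 were below the median. The median differences were -0.0085 for anterior, -0.018 for central and -0.023 for posterior genes, beside 0.00 for all genes. The anterior genes are few here, since most genes of the HOXA cluster were not analysed.

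The genes that encode cofactors of HOX proteins and the related ParaHox genes contained no called gene. Over all genes, 6.64% were called in either direction, and in lists this short a lack of calls cannot be set apart from that share. Of 7 TALE cofactors measured, none was higher or lower, and 6 lay at or above the array median. Their differences ranged from -0.81 for MEIS3, from 6.29 to 5.48, to 0.94 for MEIS2, from 7.51 to 8.46, which is just under 2-fold. PBX2 and PBX3, partners in DNA binding, differed by 0.050 and -0.069. The median of the list was 0.050. Of 6 ParaHox genes, the sister family of the HOX clusters, none was called and the median was -0.076. CDX2, which drives intestinal identity and itself activates HOX genes, was at 6.59 and 6.42, next to the medians of the arrays, while CDX1 was under the lower quartile on both.

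Among the regulators of the clusters, the list with the median farthest from 0 was Polycomb repressive complex 2. Of 10 genes measured, 1 was higher, 1 was lower and 8 were neither, with a median difference of 0.43 beside 0.00 for all genes, of which 2.52% were higher, 4.12% lower and 6.64% either. In none of the regulator lists can 1 or 2 called genes be set apart from these shares. AEBP2, a DNA-binding accessory subunit, went from 10.58 to 11.78, a difference of 1.20. PHF19, a reader of methylated histone H3 that belongs to another form of the complex, went from 7.88 to 6.78, a difference of -1.10, which was -0.92 with 32 added on the linear scale. The catalytic subunit EZH2 differed by -0.28, and the core subunit SUZ12 by 0.95. Of 14 genes of Polycomb repressive complex 1, none was called, and the median was -0.088. Of 17 activators of the MLL, COMPASS and DOT1L type, 1 was higher, none was lower, and the median was 0.21. The called gene was KMT2C, a histone H3 methyltransferase, from 10.15 to 11.42, a difference of 1.27. KMT2A, the MLL protein that maintains HOX expression, differed by 0.33 and MEN1, its partner, by -0.29. Of 10 genes of CTCF and cohesin, which shape the boundaries inside the clusters, none was called, the median was 0.11 and CTCF itself differed by 0.13.

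The genes of the retinoic acid pathway contained 2 lower genes of 14 measured, none higher, and a median of -0.12, beside 4.12% lower, 2.52% higher and a median of 0.00 over all genes. Counts this small cannot be set apart from those shares. CRABP2, which carries retinoic acid to its receptors, went from 6.92 to 5.15, a difference of -1.77, which was -1.18 with 32 added. RARG, a retinoic acid receptor of stratified epithelia, went from 10.11 to 8.87, a difference of -1.25. RARB, whose gene is itself induced by retinoic acid, was under the lower quartile on both arrays. CYP26A1, an enzyme that degrades retinoic acid and is a target of its receptors, was also under the lower quartile, at 3.47 and 3.64. Whether any of these regulators bears on HOXA2 was not tested.

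Homeobox genes outside the HOX clusters, other than the ParaHox genes and cofactors above, were set beside the HOX genes. They are a mixed group of POU, LIM, zinc finger and other types. Of 123 measured, 1 was higher, 2 were lower and 120 were neither, with a median difference of 0.076 and a median difference in size of 0.25. Over all genes, 2.52% were higher and 4.12% lower. ZEB1, a zinc finger and homeodomain repressor of epithelial genes, went from 7.72 to 9.67, a difference of 1.95. POU2F3, a POU factor of tuft and epidermal cells, went from 6.77 to 5.39, a difference of -1.38, and ISL1, a LIM homeodomain factor, from 6.33 to 5.22, a difference of -1.11. Both fell short of 2-fold with 32 added, at -0.93 and -0.70, while ZEB1 stayed above it, at 1.80. IRX3, from 5.46 to 6.46, and CUX1, from 11.34 to 12.33, were just under 2-fold, at 0.999 and 0.989. Centring moved the median of all genes to 0.053, and the same shift takes both past 2-fold. The count of higher genes in this list therefore depends on the scaling. Of these genes 12.2% lay at or above the array median and 39.0% under the lower quartile, beside 21.7% and 39.1% of the HOX genes.

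**Figure D3:**
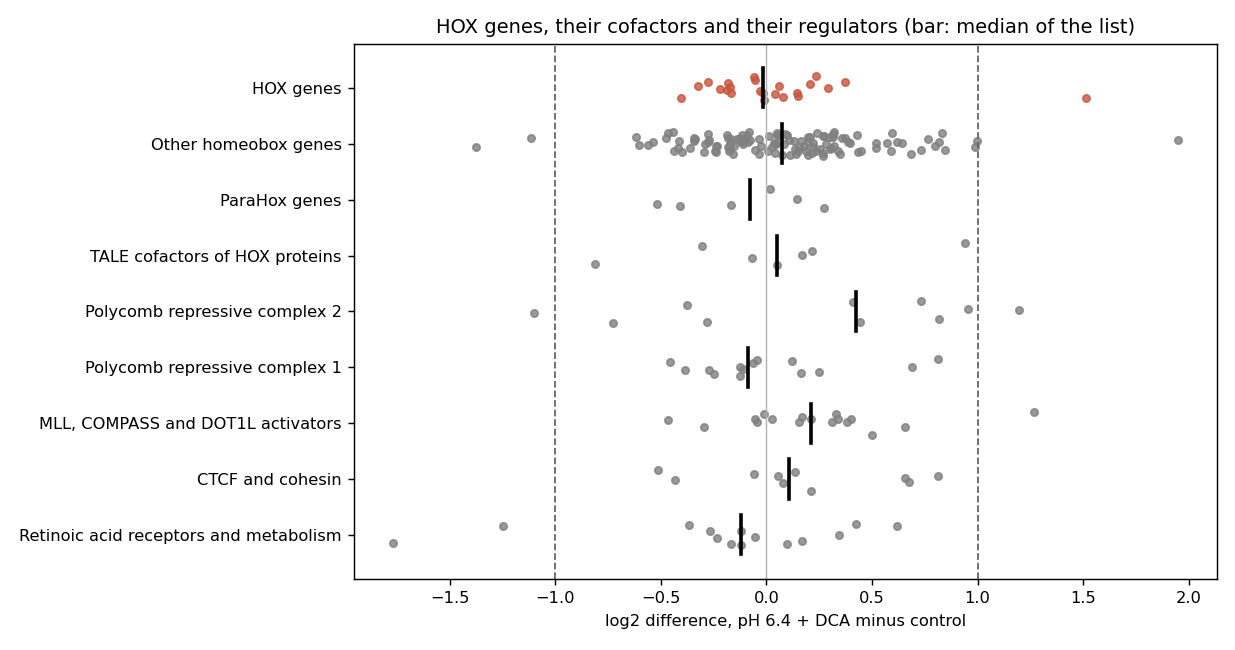
Each point gives the log2 difference, pH 6.4 + DCA minus control, of 1 gene, in rows by list, with the median of the list as a black bar and 2-fold as dashed lines. Apart from HOXA2, at 1.51, the HOX row lies between -0.41 and 0.37, and the median of Polycomb repressive complex 2 lies at 0.43.

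The genes next to the clusters were examined to place HOXA2 and the other clusters beside their surroundings. Over the 20 measured genes nearest to each cluster, 10 on either side, 14 of 20 neighbours of the HOXA cluster had a difference above 0, with a median of 0.31. Of the chromosome 7 genes other than HOXA2, 62.6% had a difference above 0, as did 49.8% of all genes. The median of the other 799 genes of chromosome 7 was 0.18, and 40 of these genes were higher and 16 lower. Over all 17687 genes, 445 were higher and 729 lower, or 2.52% and 4.12%. On chromosome 7 more genes were thus higher than lower, while over all genes more were lower than higher. Copy number was not analysed here. After the chromosome median was subtracted, a setting chosen after the values were seen, HOXA2 differed by 1.33. Of the HOXA neighbours, SKAP2, the nearest at the low-numbered end, differed by 0.57, and GSDME, which encodes the pore-forming protein gasdermin E, was higher, from 6.67 to 7.89, a difference of 1.22. With 32 added, GSDME differed by 1.01 and HOXA2 by 0.84, so GSDME was then the higher of the pair. EVX1, a homeobox gene at the high-numbered end, was under the lower quartile on both arrays. The neighbours of the HOXB, HOXC and HOXD clusters had medians of -0.10, -0.074 and -0.064, and chromosomes 17, 12 and 2 had medians of -0.050, 0.018 and -0.0082. Among these 60 neighbours CHN1, which encodes the Rac regulator chimerin, was higher near HOXD, at 1.24, and the kinase gene MAP3K12 was lower near HOXC, at -1.01. These fell to 0.97 and -0.54 with 32 added. Within the clusters, the antisense RNA HOXB-AS3 differed by -0.53 and HOXA-AS3 by 0.11, both at levels below the array medians.

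**Figure D4:**
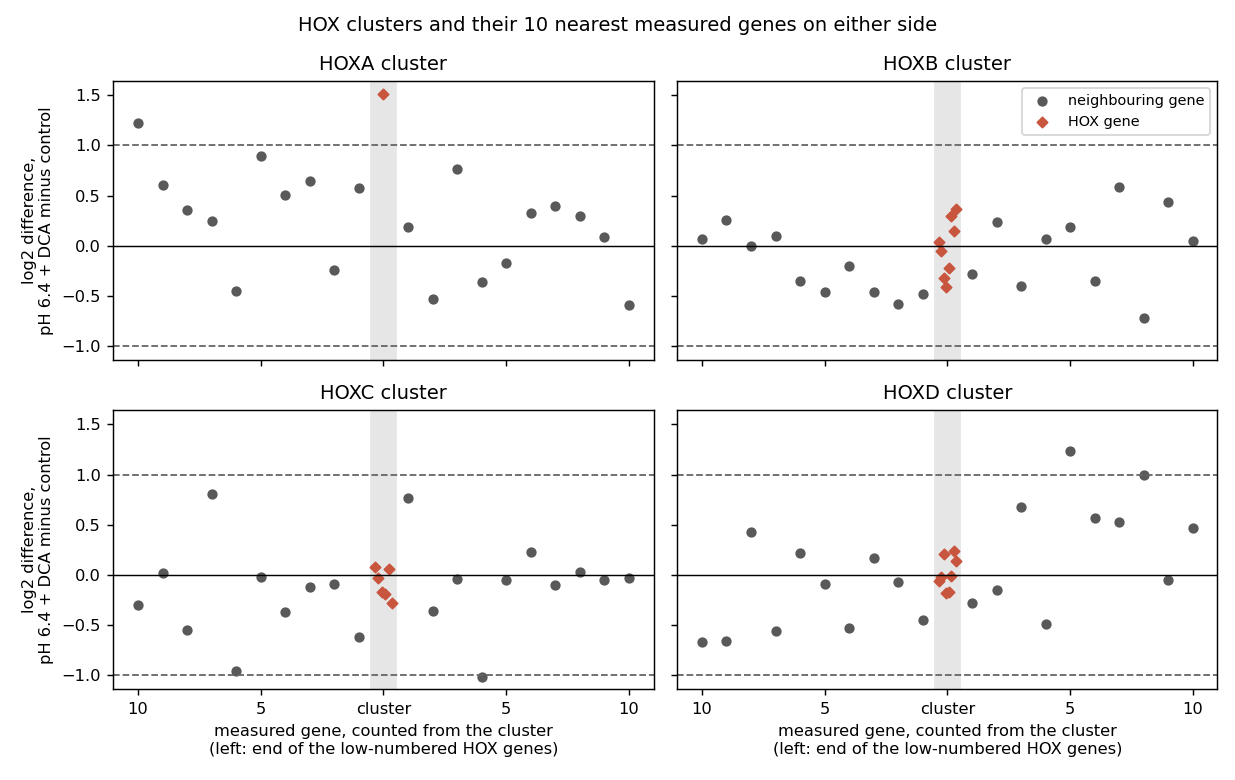
Each panel shows 1 cluster, with the log2 difference of its measured HOX genes (red diamonds, in order of number, in the grey band) and of the 10 nearest measured genes on either side (grey points), counted by order and not by distance. As deposited, HOXA2, at 1.51, stands above every neighbour of its cluster, an order that turned with 32 added (GSDME 1.01, HOXA2 0.84). The HOX genes of the other clusters lie within 0.41 of 0, a bound taken from these genes, and their neighbours range from -1.01 to 1.24. The neighbours are more numerous, and 62.5% of those of all clusters lay at or above the array median, against 21.7% of the HOX genes. These ranges therefore do not show that HOX genes differ less than their neighbours.

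The epithelial label was checked against markers, since HOX patterns differ between cell types and a bulk array cannot tell fewer cells of a type from less RNA per cell. All 8 measured epithelial markers lay above the array medians. Their summed linear level was 420947 on the control array and 255240 on the pH 6.4 + DCA array. All 8 had a difference below 0, with a median of -0.74, beside 0.00 over all genes. Of the 8, 3 were called lower, KRT14, EPCAM and KRT18. Over all genes, 2.52% were higher and 4.12% lower. Of 5 measured Barrett columnar markers, 4 lay below the medians on both arrays, including the goblet cell genes MUC2 and TFF3, and only CDX2 reached the median. The 9 fibroblast markers summed to 1153 and 10578, with DCN, which encodes decorin, higher, from 8.83 to 13.29, and to 697 and 567 without it. LUM was also higher, and THY1 was lower. COL1A2 lay above the medians, at 8.51 and 8.26. Of 5 endothelial markers, TEK was higher, from 2.86 to 4.33, with both levels under the lower quartiles, and CDH5 and KDR were also under them. VWF, in contrast, lay above the medians, at 7.06 and 6.95, and PECAM1 was at 4.59 and 4.21. The 6 leukocyte markers summed to 1474 and 1897, with CD14 higher, from 6.34 to 8.45, and PTPRC, the pan-leukocyte marker, at 5.03 and 5.07. CD68 lay above the upper quartiles, at 10.16 and 10.37, and CD79A above the medians, at 7.16 and 6.84. With 32 added, LUM, THY1 and TEK no longer reached 2-fold, and 1 fibroblast marker and no endothelial marker was higher. The part of cell composition in the HOXA2 difference was not tested.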

How the data were processed

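Per the submitters' processing notes, Transcriptome Analysis Console 4.0 was used, and the authors deposited 1 table of log2 expression levels with 21448 rows. For background correction, summarization, normalization and genome build, the sources used here give no setting. The platform annotation gave 1 symbol for 17709 rows, several for 0 and no symbol for 3739. For a gene with several rows, the row with the highest mean of both arrays was kept. RefSeq (GRCh38.p14) supplied chromosomes, gene order and promoters, and all 17687 gene IDs matched it. No probe sequences were used, so whether probes of 1 HOX gene also match another was not tested.

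Members and lists were chosen with earlier results of these data known. Every HOX gene is accounted for. Those past 2-fold or at the array median are given with both levels, as are members of other lists past 2-fold and a few with a defining role. Other HOX levels, MEIS2, MEIS3, IRX3 and CUX1 were added after their values were seen. Other homeobox genes, cofactors and regulators were taken from 9 lists by name, and genes that the annotation used does not name were not analysed here. Alternatives were centring, quantile normalization, a lowess trend with span 0.3, 32 added on the linear scale, the mean of rows, thresholds of 1.5 and 3, and filters on level. Steps were tested on simulated data, with changes larger than that of HOXA2 and small noise of the same size at all levels. That test checks the calculation and does not cover calls near 2-fold or at low signal. Python 3.11.15, numpy 2.4.6, pandas 2.3.3, statsmodels 0.14.6 and matplotlib 3.10.9 were used.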

Additional observations from a re-analysis of the deposited data

How the results depend on the processing

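Across 10 alternative settings, 87 of 92 values of the HOX genes stayed on their side of 2-fold and within 1.5-fold of the reported value, and none of the called values changed sign. Part of the 87 could not change, so this count overstates stability. Each HOX gene has 1 row, so taking the mean of rows alters nothing. Centring, quantile normalization and the added 32 keep the order within an array, which fixes the count at or above the median. The filter at the array median fixes that count too. The 5 values that moved all concern HOXA2. With 32 added on the linear scale, the difference of HOXA2, which is also the median of the measured HOXA genes, was 0.84, and 0 HOX genes were higher. The number of higher HOX genes was also 0 at a threshold of 3-fold, and when genes below the array median were left out, which removes HOXA2. Over all settings the difference of HOXA2 ranged from 0.84 to 1.57, and the median of the HOX genes ranged from -0.17, with genes below the array median left out, to 0.035, with centring. Over all genes, 445 were higher and 729 lower as deposited, and 249 and 501 with 32 added. Centring moved the median of all genes to 0.053. No HOX gene was lower in any setting. No paired analysis was possible because each condition has 1 array. The weak signal of most HOX genes, with 18 of 23 below the array median, and the lack of replicate arrays limit all differences.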
